A study of Sus scrofa with 14 samples.

Results

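The circadian clock genes *PER1*, *PER2*, *PER3*, *CRY1*, *CRY2*, *NR1D1*, *NR1D2*, *DBP*, *TEF* and *CLOCK* were chosen by name. Earlier results of these data were known at that choice. The genes were followed across all conditions of an RNAseq experiment on pig heart slices. Of these 10 genes, 9 had an entry among the 13644 genes of the FPKM table (fragments per kilobase of transcript, scaled to library size, so that levels are per length), and *PER3* was not analysed here. All 9 passed the filter on low values. RNA came from 14 libraries of left ventricular slices of pigs (*Sus scrofa*), which the reporting form of the study describes as female animals of the Yorkshire breed aged 3 months. MT slices (2 libraries) were cultured for 12 days in the CTCM, a chamber that paces and stretches the slice, with added 100 nM triiodothyronine (T3, the active thyroid hormone) and 1 µM dexamethasone (Dex, a synthetic glucocorticoid). MC slices (2 libraries) were in the CTCM for 12 days without added T3 and Dex, TD slices (4 libraries) were in static, electrically paced culture for 12 days with T3 and Dex at the same doses, and Ctrl slices (4 libraries) were in that static culture without them. D0 slices (2 libraries) were fresh. The study's figure of the RNAseq comparison gives 10 to 12 days for Ctrl and MT, so culture time may differ between libraries. In the study's methods, static and CTCM culture also differed in pacing voltage and in how often the medium was changed. T3 and Dex were added fresh at each change. These differences cannot be told apart from stretch when CTCM and static culture are compared. The number of pigs behind the libraries is not stated, so p-values measure the spread between libraries, which may be technical. The label of MT-2 names T4 in place of T3. The treatment text attached to the libraries is one and the same and names T3 and Dex even for D0, so the groups rest on the label of each library. The hour at which slices were collected is given in none of these sources, and each library is a single time point, so phase and amplitude of a rhythm could not be read from these data.

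The molecular clock is a loop of transcription and feedback that runs in most cells, heart muscle cells included. CLOCK and its partner ARNTL (also called BMAL1) bind E-box sequences and switch on the *PER* and *CRY* genes, whose proteins then inhibit CLOCK and ARNTL, and the same pair drives the nuclear receptors NR1D1 and NR1D2 (REV-ERB alpha and beta), which bind ROR elements and repress *ARNTL*. DBP and TEF, activators of the PAR bZIP family, carry the rhythm to output genes through D-box sequences, and glucocorticoids are known to set the clock of peripheral tissues, in part by inducing *PER1*.

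Promoters were read from the Sscrofa11.1 genome of RefSeq, from 250 bases before to 50 bases after each gene start, and searched on both strands for an E-box (CACGTG), a D-box (TTATGTAA or TTACGTAA), a ROR element (TAGGTCA) and a glucocorticoid receptor site (ACANNNTGT). An E-box stood in the windows of 3 of the 10 genes (*PER1*, *PER3* and *TEF*), against 7.64% of 20654 promoters of protein-coding genes, a ROR element in 2 (*CRY2* and *DBP*), against 2.95%, a D-box in 1 (*PER3*), against 0.944%, and the glucocorticoid receptor site in 0, against 4.69%. No match in a window says only that these letters are absent there. The stretches below are from the genes with a value in these libraries, 5′ to 3′ on the strand of the gene and ending before its start, with the match in capitals. They show the E-box matches of *PER1* and *TEF* and the ROR element match of *DBP*. *DBP* was picked as the member whose difference between TD and Ctrl held in every alternative run. The ROR element match of *CRY2* is not shown, and whether any match bears on the levels below was not tested.
PER1 E-box (minus strand, chr12:53376784-53376843): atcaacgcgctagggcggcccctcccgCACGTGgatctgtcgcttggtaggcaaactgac
TEF E-box (minus strand, chr5:7135269-7135328): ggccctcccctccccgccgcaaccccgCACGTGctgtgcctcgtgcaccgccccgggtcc
TEF E-box (minus strand, chr5:7135172-7135218): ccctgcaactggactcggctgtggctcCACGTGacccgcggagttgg
DBP ROR element (minus strand, chr6:53993054-53993113): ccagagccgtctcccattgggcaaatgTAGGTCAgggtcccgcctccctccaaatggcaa
The *PER1* E-box begins 93 bases before the gene start, those of *TEF* 130 and 20 bases before it, and the *DBP* ROR element 42 bases before it. A match is a description of the sequence and not a measured binding site.

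Depth and libraries that stand apart were checked before the comparisons. Between 10628827 and 23225189 reads a library were solved from the FPKM. The number of genes listed at 0 was 2335 and 2854 in MT and 1127 and 1457 in MC, against 595 to 833 in TD, 641 to 686 in Ctrl and 607 and 671 in D0, so the MT libraries stand apart, and the part of this in the MT results was not tested. The share of reads in genes of at least 5000 bases was 31.7 to 35.3% in MT, 31.4 to 37.2% in MC, 30.8 to 41.9% in TD, 34.6 to 41.8% in Ctrl and 40.0 to 40.7% in D0. Of the cardiomyocyte markers, 8 of 10 had an entry, and their summed level was 131 to 315 FPKM in MT, 46.1 to 52.6 in MC, 18.04 to 27.8 in TD, 19.6 to 29.9 in Ctrl and 373 to 450 in D0. In D0 these markers were uneven, from 285 to 332 FPKM for the myosin light chain *MYL2*, 47.6 to 67.4 for *MYL3*, 16.5 to 23.3 for *TNNT2* and 18.5 to 20.1 for *ATP2A2*, to 1.31 and 1.32 for the myosin heavy chain *MYH7* and 0.137 and 0.170 for *RYR2*. *TNNI3* and *PLN* were not analysed here, and whether the low level of *MYH7*, listed with a length of 19881 bases, lies in its annotation was not tested. The 7 fibroblast markers summed to 3083 to 3177 FPKM in MT, 2889 to 3005 in MC, 2790 to 4440 in TD, 2670 to 5596 in Ctrl and 4594 to 5220 in D0. Endothelial markers (5 of 5) summed to 46.8 to 55.0 FPKM in MT, 37.1 to 45.0 in MC, 29.1 to 58.1 in TD, 87.3 to 111 in Ctrl and 168 to 189 in D0. The part of these differences in the results below was not tested, except where a fit with the long-gene share as a covariate is given. In bulk RNA, fewer cells of a type and less RNA per cell cannot be told apart.

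In the 2 MC libraries, some glucocorticoid-induced genes lay near the level of libraries labelled with Dex. *FKBP5*, a chaperone induced by the glucocorticoid receptor, had 55.6 and 51.9 FPKM in MT, 79.8 and 64.5 in MC, 74.6, 79.9, 89.4 and 73.1 in TD, 19.9, 17.4, 31.1 and 32.6 in Ctrl, and 22.9 and 23.0 in D0. The libraries labelled MC, which names no Dex, lay at the level of MT and TD libraries and above every Ctrl and D0 library, with a difference from Ctrl of 1.52 ± 0.23 (SE) on the log2(FPKM + 1) scale (adjusted p = 0.00321, limma), and *TSC22D3*, also induced by the receptor, differed by 1.00 ± 0.15 (adjusted p = 0.00291, limma). Of 6 such genes, 3 were called higher in TD than in Ctrl, 2 higher in MC than in Ctrl and 0 in MT against MC by limma. Of all genes tested, 1.26%, 2.3% and 0.885% were called higher in these comparisons. In MC against Ctrl the others, *ZBTB16*, *KLF9*, *SGK1* and *DUSP1*, were not called. In Ctrl against D0, neither with added Dex, 2 of the 6 were called higher by limma (*TSC22D3* and *DUSP1*), beside 3.5% of all genes. Whether the libraries labelled MC received Dex cannot be told from the files, and every MC comparison below is of the libraries labelled MC. A value for MC without both of its libraries cannot be had, and values without each of them are given for the clock genes called in MC.

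Across the conditions, limma made few calls among the clock genes, and most came from *DBP* and *NR1D1*. In TD against Ctrl, 1 of 9 was lower (*DBP*) and 0 were higher, where 2.22% of 11527 genes tested were called lower and 1.26% higher. In MC against Ctrl, 2 were lower (*NR1D1* and *DBP*) and 0 higher, against 4.16% lower and 2.3% higher of all genes. In MT against MC, 0 were called in either direction, against 2.31% lower and 0.885% higher of all genes, and in MT against TD, 1 was lower (*NR1D1*) and 0 higher, against 7.14% and 2.99%. These counts are small enough that a single gene decides each share.

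Against fresh slices, limma called 1 clock gene higher (*CRY1*) and 1 lower (*NR1D1*) in MT, where 9.38% of all genes were called higher and 18.1% lower. In MC, 1 was higher (*CRY1*) and 0 lower, against 6.34% and 11.3% of all genes, and in TD 0 were called, against 5.01% higher and 8.9% lower. In Ctrl, 1 was higher (*DBP*) and 0 lower, against 3.5% and 4.95%. The median difference of the 9 genes was -0.64 in MT, -0.34 in MC, -0.28 in TD and 0.14 in Ctrl on the log2(FPKM + 1) scale, beside -0.11, -0.05, -0.02 and -0.02 over all genes tested. Whether the difference between T3/Dex and no T3/Dex itself differed between CTCM and static culture was also tested. This test called 0 of 9, against 2.06% of all genes higher and 2.6% lower. All comparisons with D0 share its 2 libraries, and TD and MC share the Ctrl libraries, so their values are not independent of each other. In TD against D0 and in MT against MC, 0 of 9 clock genes also had an unadjusted p under 0.05 in limma, and in the test of the difference between cultures 1 did (*DBP*). With limma voom on the reads solved from FPKM, the count of members with an adjusted p under 0.05 was 0 in all 3.

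**Figure D1:**
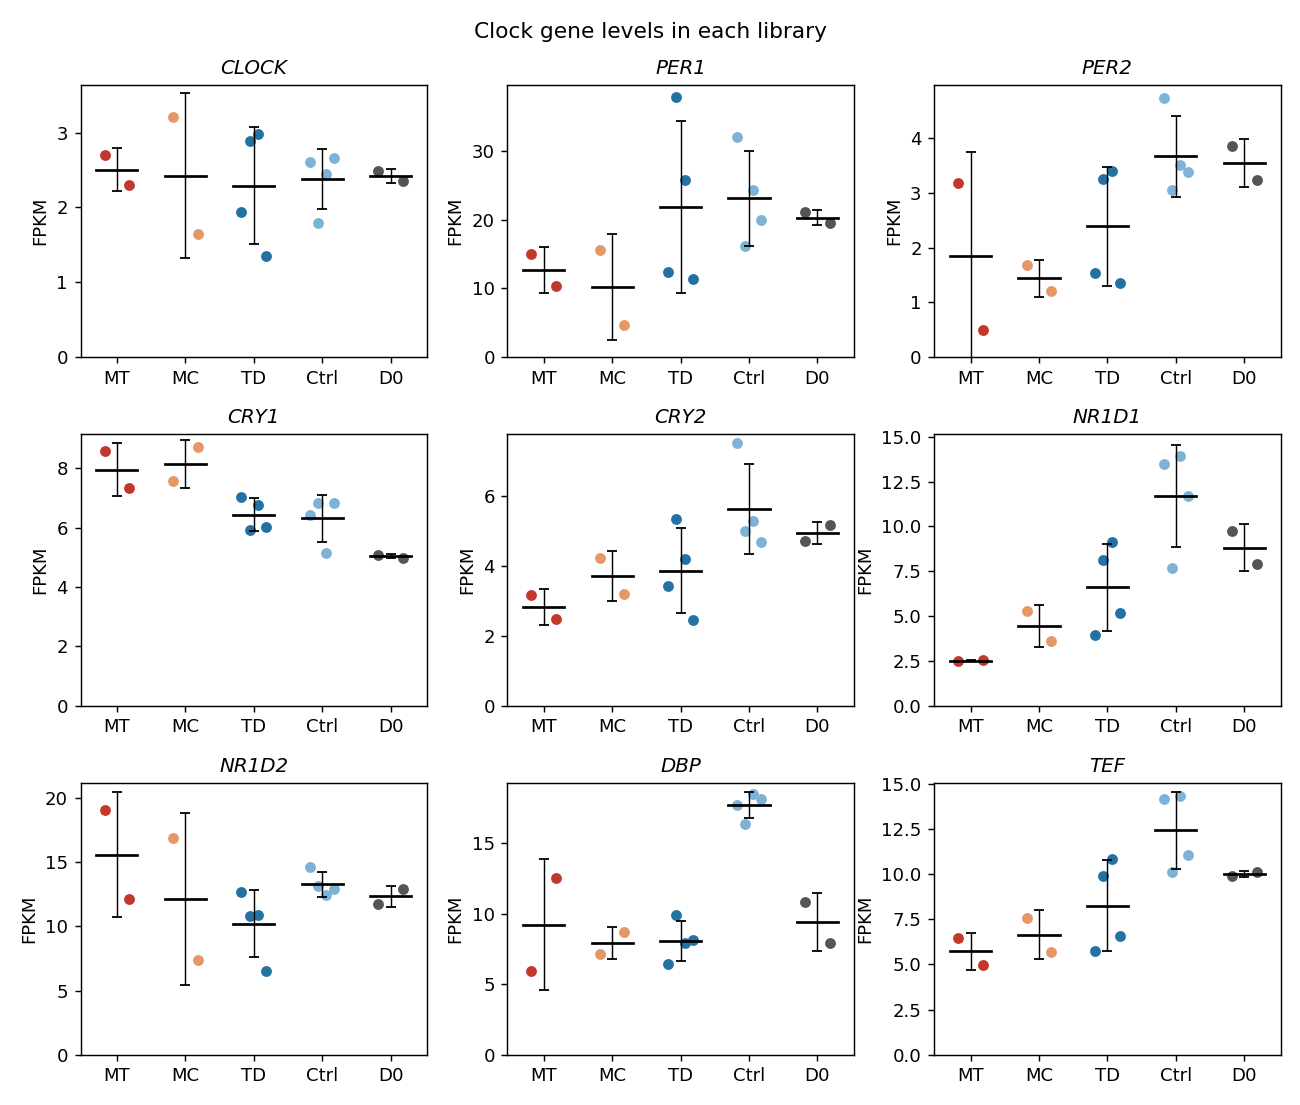
Level of each of the 9 clock genes in FPKM (y axis, from 0) in the libraries of MT, MC, TD, Ctrl and D0 slices (x axis), with libraries as points, the mean as a horizontal bar and the SD as vertical bars drawn down to 0 at most. *DBP* is high in all 4 Ctrl libraries, *NR1D1* is lowest in the 2 MT libraries, and *CLOCK* has means between 2.29 and 2.50 FPKM in every condition.

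*CLOCK* (ENSSSCG00000008909, chromosome 8 from 54793323 to 54910192 of Sscrofa11.1, minus strand) encodes the activator that pairs with ARNTL. It had 2.71 and 2.30 FPKM in MT, 3.21 and 1.65 in MC, 1.95, 2.89, 2.98 and 1.35 in TD, 2.61, 1.80, 2.45 and 2.66 in Ctrl, and 2.48 and 2.36 in D0. The ranges of all 5 conditions overlap, the means run from 2.29 ± 0.780 (SD, n = 4) in TD to 2.50 ± 0.288 (SD, n = 2) in MT, and no neighbours in that order differ beyond their spread. Its differences lay between -0.09 and 0.12 on the log2(FPKM + 1) scale in the 8 comparisons, each with an SE of 0.20 to 0.28, so changes of that size were not detectable with these libraries. Over 9 other settings its MT against D0 difference ran from -0.28 to 0.46 and was called in 0. Its annotated locus overlaps *TMEM165* on the opposite strand by 3030 bases, and reads there cannot be told apart without strand.

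The *PER* genes encode the repressors that enter the nucleus with the CRY proteins and shut off CLOCK and ARNTL. *PER1* (ENSSSCG00000017983, chromosome 12 from 53361863 to 53376723, minus strand) had the highest mean level of the 9 genes in TD, Ctrl and D0. Its level was 15.0 and 10.3 FPKM in MT, 15.7 and 4.69 in MC, 12.3, 37.9, 25.9 and 11.4 in TD, 32.1, 16.1, 24.4 and 19.9 in Ctrl, and 21.1 and 19.6 in D0. Both CTCM groups lay below every Ctrl and D0 library, while TD libraries fell on either side of them, TD-2 being the highest of all and TD-4 among the lowest. The difference was -1.27 ± 0.48 (SE) in MC against Ctrl (adjusted p = 0.115), -1.13 ± 0.55 in MC against D0 (adjusted p = 0.172) and -0.66 ± 0.55 in MT against D0 (adjusted p = 0.392), none of which passed the limma test. With 1 library left out at a time, the MC against Ctrl difference ran from -2.04 to -0.49. *PER1*, a gene known to be induced by glucocorticoids, differed by -0.20 ± 0.39 in TD against Ctrl (adjusted p = 0.86, limma). In the same slices *FKBP5* was higher by 1.66. Over 10 other settings the *PER1* difference ran from -0.37 to 0.29, so its direction was not settled.

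*PER2* (ENSSSCG00000016338, chromosome 15 from 137793419 to 137837854, minus strand), the second repressor of this family with a value here, was expressed at a lower level. It had 3.19 and 0.489 FPKM in MT, 1.68 and 1.20 in MC, 1.53, 3.25, 3.41 and 1.36 in TD, 4.73, 3.05, 3.52 and 3.37 in Ctrl, and 3.85 and 3.23 in D0. Both MC libraries lay below every Ctrl and D0 library, and the MT libraries differed from each other by 6.52-fold, the widest gap within a condition of the 9 genes, with 413 reads in MT-1 and 42 in MT-2. The difference in MC against Ctrl was -0.93 ± 0.37 (SE, adjusted p = 0.123) and in MT against D0 -0.86 ± 0.42 (adjusted p = 0.147), neither past the limma threshold. Without MT-1, the difference of *PER2* in MT against D0 was -1.61 and passed the test (adjusted p = 0.00544, limma), so that this library decides the call. In MC against Ctrl, *PER2* was called lower without MT-1 or MT-2 (adjusted p = 0.0363 each), in a fit of MC and Ctrl alone (0.022) and with array weights (0.0475), by limma.

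The *CRY* genes encode the partners of PER in the repressor complex. *CRY1* (ENSSSCG00000000164, chromosome 5 from 13275265 to 13429566, plus strand) was the 1 member that was higher in the CTCM slices. It had 8.60 and 7.33 FPKM in MT, 7.58 and 8.73 in MC, 7.05, 5.92, 6.75 and 6.01 in TD, 6.42, 6.85, 5.17 and 6.83 in Ctrl, and 5.09 and 4.995 in D0. Every cultured library lay above both D0 libraries, and every MT and MC library lay above every TD, Ctrl and D0 library. *CRY1* was higher by 0.57 ± 0.18 (SE) in MT than in D0 (adjusted p = 0.0328) and by 0.60 ± 0.18 in MC than in D0 (adjusted p = 0.0365), or 1.58-fold and 1.62-fold on mean FPKM, by limma. The differences from D0 of 0.30 in TD (adjusted p = 0.256) and 0.27 in Ctrl (adjusted p = 0.435) did not pass, nor did 0.33 ± 0.15 in MC against Ctrl (adjusted p = 0.181) or 0.27 ± 0.15 in MT against TD (adjusted p = 0.288).

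The calls of *CRY1* against D0 were near the threshold. With FPKM rescaled to the same sum in every library (TPM) the adjusted p (limma) was 0.459 in MT and 0.301 in MC, and each call was made in 5 of 10 other settings. Without D0-1 it was 0.138 and 0.166, without D0-2 0.145 and 0.169, without MT-1 0.0806 in MT, and in MC 0.056 without MC-1, 0.198 without MC-2, 0.0538 without Ctrl-1 and 0.0529 without Ctrl-4. The annotated locus of *CRY1* overlaps *TMEM263* on the opposite strand by 17923 bases and *MTERF2* on the same strand by 2399 bases, where reads cannot be assigned with certainty.

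*CRY2* (ENSSSCG00000013270, chromosome 2 from 16587101 to 16620380, minus strand) had the other order. Its level was 3.18 and 2.47 FPKM in MT, 4.23 and 3.20 in MC, 3.42, 5.34, 4.20 and 2.47 in TD, 7.52, 5.01, 5.29 and 4.67 in Ctrl, and 4.71 and 5.16 in D0. The MT and MC libraries lay below all Ctrl and D0 libraries, and the TD libraries spanned from the level of MT to above that of D0. No comparison passed the limma test: the difference was -0.64 ± 0.28 (SE) in MT against D0 (adjusted p = 0.103), -0.48 ± 0.24 in MC against Ctrl (adjusted p = 0.199) and -0.46 ± 0.20 in TD against Ctrl (adjusted p = 0.305).

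*NR1D1* (ENSSSCG00000036933, chromosome 12 from 22263549 to 22274131, plus strand) encodes REV-ERB alpha, the heme-binding receptor that represses *ARNTL*, and it was lowest in MT. Its level was 2.49 and 2.56 FPKM in MT, 5.29 and 3.62 in MC, 3.97, 8.10, 9.14 and 5.19 in TD, 13.5, 7.67, 13.9 and 11.7 in Ctrl, and 9.75 and 7.90 in D0. The 2 MT libraries lay below every other library, from 119 and 81 reads, and the MC libraries lay below every Ctrl and D0 library. In the order Ctrl, D0, TD, MC, MT each group overlapped the next, apart from MT and MC, whose difference did not pass the test (-0.61 ± 0.34, adjusted p = 0.425, limma).

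By limma, *NR1D1* was lower in MT than in D0 by -1.47 ± 0.34 (SE) on the log2(FPKM + 1) scale (adjusted p = 0.0068), with mean levels of 2.52 ± 0.0476 FPKM in MT and 8.82 ± 1.31 in D0 (SD, n = 2 each). It was also lower in MC than in Ctrl, by -1.21 ± 0.29 (adjusted p = 0.0328), and in MT than in TD, by -1.05 ± 0.29 (adjusted p = 0.0392). In TD against Ctrl it had a difference of -0.77 ± 0.24 that was not called (adjusted p = 0.122). The MT against D0 call of *NR1D1* remained in 9 of 10 other settings and with 13 of 14 libraries left out in turn, and was lost with array weights (adjusted p = 0.0883) and without D0-1 (adjusted p = 0.0651). The MC against Ctrl call of *NR1D1* was lost without D0-1 or D0-2 (adjusted p = 0.0531 each), Ctrl-1 (0.0924), Ctrl-3 (0.0867), Ctrl-4 (0.0667), MC-1 (0.0656) or MC-2 (0.252), and with voom (0.092) or TPM (0.0558). The MT against TD call of *NR1D1* held in only 2 of 10 other settings, and was lost without D0-1, D0-2, Ctrl-1, Ctrl-3, Ctrl-4, TD-2, TD-3, MT-1 or MT-2 (adjusted p up to 0.0971, limma).

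The locus of *NR1D1* overlaps *THRA*, which encodes thyroid hormone receptor alpha on the opposite strand, by 3626 bases (chromosome 12 from 22270506 to 22274131). The library kit is not stated to keep strand, so reads of *NR1D1* and *THRA* in this stretch cannot be told apart. *THRA* had 1.39 and 2.25 FPKM in MT, 2.81 and 1.78 in MC, 2.20, 4.37, 3.93 and 2.42 in TD, 4.63, 3.14, 4.69 and 3.95 in Ctrl, and 5.15 and 5.38 in D0. It was lower in MT than in D0 by -1.17 ± 0.29 (SE, adjusted p = 0.00958) and in MC than in D0 by -0.94 ± 0.29 (adjusted p = 0.0376), by limma. The MT call of *THRA* was lost without D0-1 or D0-2 (adjusted p up to 0.0625), and its MC call without D0-1, D0-2, Ctrl-1, Ctrl-3, Ctrl-4 or MC-2 (up to 0.24), by limma. The MT call was also lost with the compared conditions alone (0.0742) and array weights (0.0811), and the MC call with TPM (0.0909) and the long-gene covariate (0.0849). How much of either gene's value comes from the other gene was not tested.

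*NR1D2* (ENSSSCG00000027017, chromosome 13 from 10756954 to 10791219, plus strand), which encodes REV-ERB beta, did not follow *NR1D1*. It had 19.0 and 12.2 FPKM in MT, 16.9 and 7.37 in MC, 12.7, 10.8, 10.9 and 6.55 in TD, 14.7, 13.1, 12.4 and 12.9 in Ctrl, and 11.8 and 12.9 in D0. The ranges of all 5 conditions overlap, TD and Ctrl only through TD-1, and no comparison passed the limma test. The largest difference of *NR1D2* was 0.57 ± 0.29 (SE) in MT against TD (adjusted p = 0.233), a comparison in which *NR1D1* was called lower.

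*DBP* (ENSSSCG00000003148, chromosome 6 from 53986955 to 53993044, minus strand), an activator of D-box genes and one of the outputs of the loop, was high in Ctrl alone. Its level was 5.96 and 12.5 FPKM in MT, 7.12 and 8.71 in MC, 6.42, 9.89, 7.89 and 8.13 in TD, 17.7, 16.4, 18.5 and 18.1 in Ctrl, and 10.8 and 7.93 in D0. All 4 Ctrl libraries lay above the 10 others, among which the remaining conditions overlapped. Mean levels were 8.08 ± 1.42 FPKM in TD and 17.7 ± 0.916 in Ctrl (SD, n = 4 each), a 2.19-fold lower level in TD.

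*DBP* was lower in TD than in Ctrl by -1.05 ± 0.19 (SE) on the log2(FPKM + 1) scale (adjusted p = 0.00794, limma), and in MC than in Ctrl by -1.07 ± 0.24 (adjusted p = 0.0227). In Ctrl it was higher than in D0 by 0.86 ± 0.24 (adjusted p = 0.0411), and in MT against D0 the difference was -0.09 ± 0.28 (adjusted p = 0.839), by limma. The TD against Ctrl call of *DBP* was made in all 10 other settings and with each of the 14 libraries left out, with adjusted p between 0.000315 and 0.0304. The MC against Ctrl call of *DBP* was lost without MC-1 (adjusted p = 0.103), MC-2 (0.0998), Ctrl-1 (0.0602), Ctrl-3 (0.0606) or Ctrl-4 (0.0519). The Ctrl against D0 call of *DBP* was lost without D0-1 (adjusted p = 0.108), D0-2 (0.457), any Ctrl library (up to 0.0996), TD-3, TD-4, MC-1 or MC-2, and with a pseudocount of 0.1 (0.0575) or TPM (0.0804).

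The difference of *DBP* between T3/Dex and no T3/Dex was 0.13 ± 0.28 (SE) in the CTCM (MT against MC) and -1.05 ± 0.19 in static culture (TD against Ctrl). The test of the difference between these gave 1.18 ± 0.34 and an adjusted p of 0.0683 (limma), which did not pass. Without MT-1 it was 1.65 with an adjusted p of 0.0022, MT-1 having 5.96 FPKM of *DBP* and MT-2 12.5 FPKM. The libraries labelled MC carried some glucocorticoid-induced genes near the level of TD, as given above, and the part of this in the comparison was not tested.

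*TEF* (ENSSSCG00000035152, chromosome 5 from 7119354 to 7135171, minus strand), a PAR bZIP activator like DBP, had 6.44 and 4.99 FPKM in MT, 7.59 and 5.68 in MC, 5.72, 9.91, 10.8 and 6.56 in TD, 14.2, 10.1, 14.3 and 11.05 in Ctrl, and 9.90 and 10.1 in D0. Both CTCM groups lay below all Ctrl and D0 libraries, and all 4 Ctrl libraries lay above both D0 libraries, Ctrl-2 only just. The difference of *TEF* in MC against Ctrl was -0.81 ± 0.24 (SE) with an adjusted p of 0.06, and in MT against D0 -0.72 ± 0.28 with an adjusted p of 0.0709, by limma, neither of which passed. The MC against Ctrl difference of *TEF* passed in 3 of 10 other settings and with 3 of 14 libraries left out, over a range of adjusted p from 0.0317 to 0.366.

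**Figure D2:**
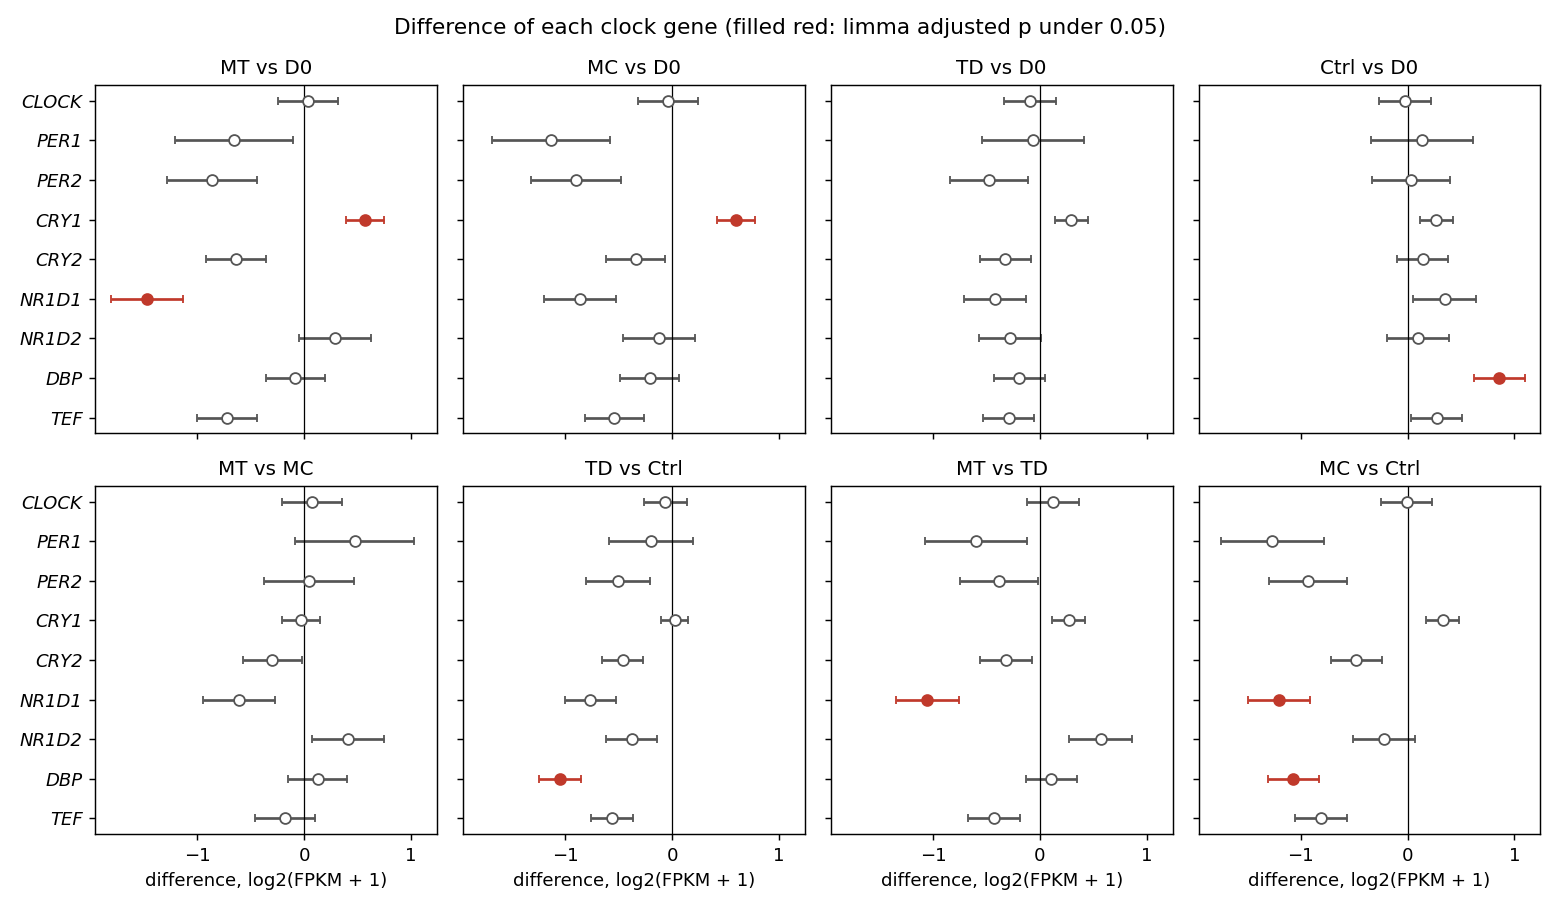
Difference of each clock gene on the log2(FPKM + 1) scale (x axis) in 8 comparisons (panels), with the SE from limma as bars, in MT, MC, TD and Ctrl against D0 (top) and in MT against MC, TD against Ctrl, MT against TD and MC against Ctrl (bottom). Filled points passed the limma test (adjusted p under 0.05): *CRY1* and *NR1D1* in MT, *CRY1* in MC and *DBP* in Ctrl against D0, *DBP* in TD against Ctrl, *NR1D1* in MT against TD, and *NR1D1* and *DBP* in MC against Ctrl.

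Members whose groups do not overlap were counted in each comparison, beside the same count over all genes. In MC against Ctrl, 6 of 9 clock genes lay wholly lower and 1 wholly higher, where 24.6% and 20.7% of 11527 genes did. In MC against D0 it was 5 lower and 1 higher, beside 37.7% and 31.3% of all genes, and in MT against D0 5 lower and 1 higher, beside 36.8% and 27.6%. In TD against Ctrl, 1 was lower and 0 higher, beside 7.20% and 5.11% of all genes. In Ctrl against D0, 0 were lower and 3 higher (*CRY1*, *DBP* and *TEF*), beside 23.9% and 18.7%, and in TD against D0 0 lower and 1 higher (*CRY1*), beside 24.1% and 18.3%. In MT against MC, 2 were lower and 0 higher, beside 16.1% and 13.1%, and in MT against TD 1 lower and 1 higher, beside 14.6% and 10.4%. The 5 lower in MT and in MC against D0 were *PER1*, *PER2*, *CRY2*, *NR1D1* and *TEF*, and the higher one *CRY1*.

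The 6 members lower in MC than in every Ctrl library were these 5 and *DBP*. Within TD, the levels of *PER1*, *PER2*, *CRY2*, *NR1D1*, *TEF* and *CLOCK* went with the share of reads in long genes. Each of these genes was lower in TD-1 and TD-4 than in TD-2 and TD-3, whereas *CRY1*, *NR1D2* and *DBP* did not separate in this way. The share was 30.8% in TD-1 and 31.9% in TD-4, against 39.7% in TD-2 and 41.9% in TD-3. *PER1* had 12.3 and 11.4 FPKM in TD-1 and TD-4 and 37.9 and 25.9 FPKM in TD-2 and TD-3. *TEF* had 5.72 and 6.56 FPKM in TD-1 and TD-4 and 9.91 and 10.8 in TD-2 and TD-3, and *DBP* 6.42 and 8.13 in TD-1 and TD-4 and 9.89 and 7.89 in TD-2 and TD-3. How many of all genes split in this way was not counted. The split was not confined to the clock genes. Over all genes with solved reads, chi-square per degree of freedom, which grows as 2 libraries differ beyond counting error, was 174 to 277 across it. It was 73.2 between TD-1 and TD-4 and 34.0 between TD-2 and TD-3.

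**Figure D3:**
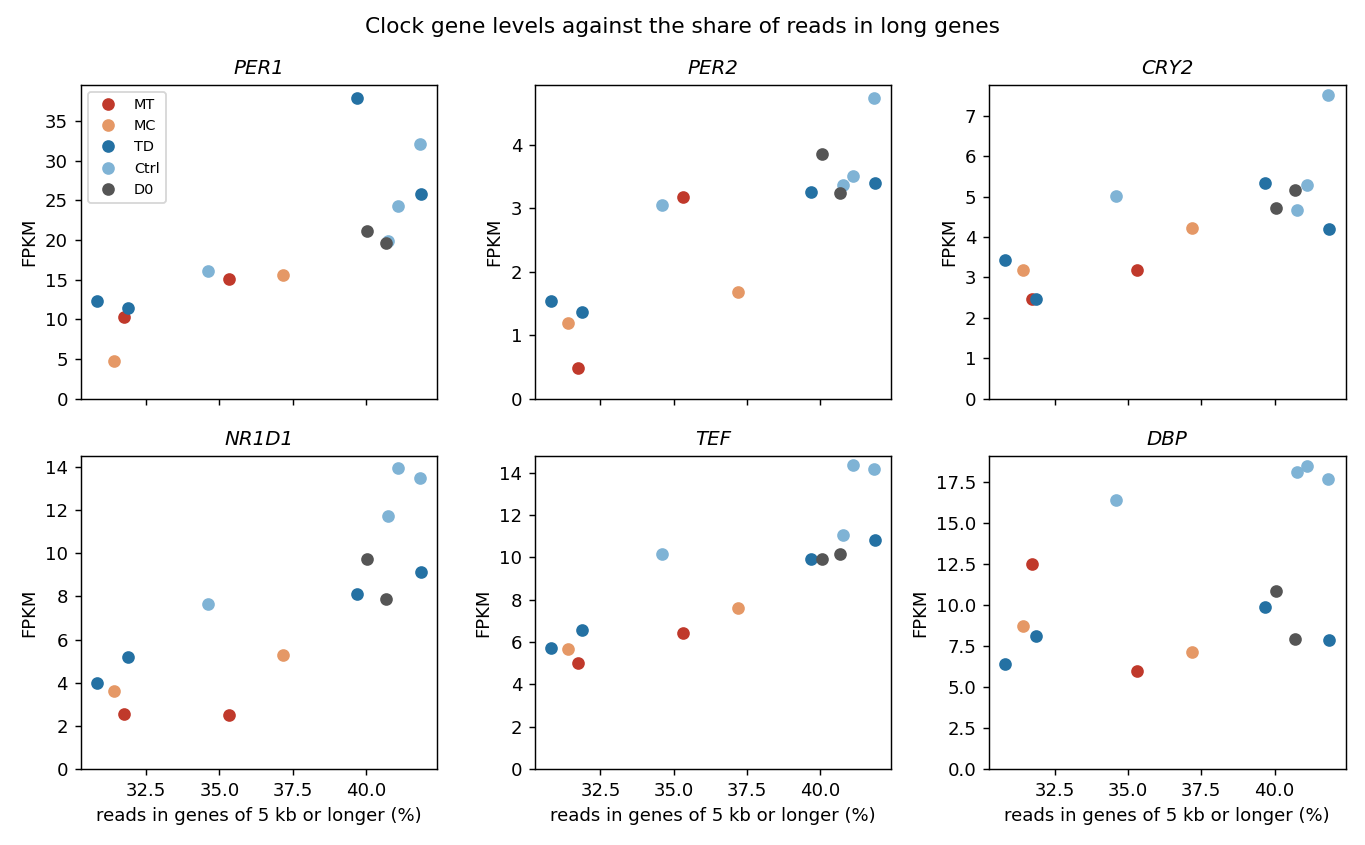
Level of 6 clock genes in FPKM (y axis, from 0) against the share of reads in genes of 5 kb or longer in percent (x axis) in the 14 libraries, coloured by condition. For *PER1*, *PER2*, *CRY2*, *NR1D1* and *TEF* the libraries with a share near 31% lie low and those near 41% high, whereas the 4 Ctrl libraries of *DBP* lie between 16.4 and 18.5 FPKM at shares from 34.6 to 41.8%.

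With this share as a covariate, chosen after seeing the data, the difference of *PER1* in MC against Ctrl was -0.54 in place of -1.27, and in MT against D0 0.29 in place of -0.66, with adjusted p of 0.289 and 0.576 (limma). *NR1D1* had -0.90 in place of -1.47 in MT against D0 (adjusted p = 0.00544) and -0.76 in place of -1.21 in MC against Ctrl (adjusted p = 0.0199), smaller differences that still passed, and *TEF* had -0.46 in place of -0.81 in MC against Ctrl (adjusted p = 0.0675). *DBP* had -1.04 in TD against Ctrl (adjusted p = 0.0146) and -1.06 in MC against Ctrl (adjusted p = 0.0434), values close to those without the covariate. The calls of *CRY1* in MT and in MC against D0 were both lost with the covariate (limma). The share differs between the conditions themselves, all MT and MC libraries lying below all D0 libraries, so its part and that of the culture cannot be told apart in those comparisons.

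The spread between libraries of a condition was wider than counting error in most members. The largest fold between libraries of a condition was 6.52 for *PER2*, 3.34 for *PER1*, 2.30 for *NR1D1*, 2.29 for *NR1D2*, 2.20 for *CLOCK*, 2.17 for *CRY2*, 2.09 for *DBP*, 1.90 for *TEF* and 1.33 for *CRY1*. The fewest reads of a member in a library were 42, for *PER2* in MT-2, where the counting error was 15.4%, and the fewest for *PER1* were 296 in MC-2, with a counting error of 5.81%. These errors cover counting only.

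Other genes of the clock were taken from a list of 26, of which 23 had an entry and 20 passed the filter. In MT against D0, 2 were called higher (*NAMPT* and *KLF15*) and 1 lower (*ARNTL*), in MC against D0 2 higher (*NAMPT* and *KLF15*) and 1 lower (*ARNTL*), in TD against D0 1 higher (*KLF15*) and 1 lower (*ARNTL*), and in Ctrl against D0 2 higher (*BHLHE41* and *KLF15*) and 1 lower (*ARNTL*). In TD against Ctrl, 0 were higher and 1 lower (*BHLHE41*), in MC against Ctrl 0 higher and 2 lower (*NPAS2* and *BHLHE41*), and in MT against TD and MT against MC 0 were called. The medians of the 20 genes were -0.22, -0.11, 0.03 and 0.06 in MT, MC, TD and Ctrl against D0. The called genes are few in each comparison, and the percentages of all genes called are those given above.

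*ARNTL*, the partner of CLOCK, was lower in all 4 cultures than in fresh slices. It had 3.50 and 2.92 FPKM in MT, 2.39 and 2.29 in MC, 2.09, 2.39, 2.76 and 3.38 in TD, 2.07, 2.27, 2.74 and 2.79 in Ctrl, and 5.06 and 5.65 in D0, with both D0 libraries above all others. The difference from D0 was -0.60 ± 0.20 (SE) in MT (adjusted p = 0.0438), -0.93 ± 0.20 in MC (adjusted p = 0.00752), -0.81 ± 0.18 in TD (adjusted p = 0.0069) and -0.88 ± 0.18 in Ctrl (adjusted p = 0.00621), by limma. All 4 rest on the same 2 D0 libraries. Without D0-2 the adjusted p of *ARNTL* was 0.208 in MT, 0.0757 in MC, 0.107 in TD and 0.118 in Ctrl, and without D0-1 it was 0.128, 0.0474, 0.0574 and 0.0626 in the same order. The MT call of *ARNTL* was made in only 2 of 10 other settings, and its Ctrl call was lost with TPM (0.0694).

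*BHLHE41*, which encodes the E-box repressor DEC2, was also highest in Ctrl. It had 15.3 and 15.6 FPKM in MT, 12.9 and 14.2 in MC, 10.2, 17.0, 20.6 and 16.1 in TD, 32.0, 29.8, 33.7 and 32.96 in Ctrl, and 12.1 and 11.04 in D0. All 4 Ctrl libraries lay above every other library. *BHLHE41* was lower in TD than in Ctrl by -1.001 ± 0.17 (SE, adjusted p = 0.00439) and in MC than in Ctrl by -1.18 ± 0.21 (adjusted p = 0.00655), and higher in Ctrl than in D0 by 1.40 ± 0.21 (adjusted p = 0.000843), by limma. The TD against Ctrl and Ctrl against D0 calls were made in all 10 other settings and with each of 14 libraries left out, and the MC against Ctrl call was lost without MC-1 (0.0574) or MC-2 (0.0556). The difference between T3/Dex and no T3/Dex was 1.18 ± 0.29 more positive in the CTCM than in static culture (adjusted p = 0.0387, limma), a call made in 5 of 10 other settings and with 4 of 14 libraries left out. In the same test *FKBP5* had -2.07 (adjusted p = 0.00359) and *TSC22D3* -0.97 (adjusted p = 0.02), by limma. The libraries labelled MC had these 2 genes near the level of TD, and the part of this in the *BHLHE41* result was not tested.

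*NPAS2*, a paralog of *CLOCK* that can take its place beside ARNTL, had 3.57 and 4.35 FPKM in MT, 5.01 and 4.28 in MC, 4.82, 9.84, 8.82 and 6.69 in TD, 12.2, 9.15, 12.6 and 10.6 in Ctrl, and 6.79 and 5.53 in D0. It was lower in MC than in Ctrl by -1.10 ± 0.23 (SE, adjusted p = 0.0182, limma), a call lost without MC-1 (0.0618), MC-2 (0.153), Ctrl-1 (0.0549) or Ctrl-3 (0.0545). *CLOCK* itself passed the test in no comparison.

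**Figure D4:**
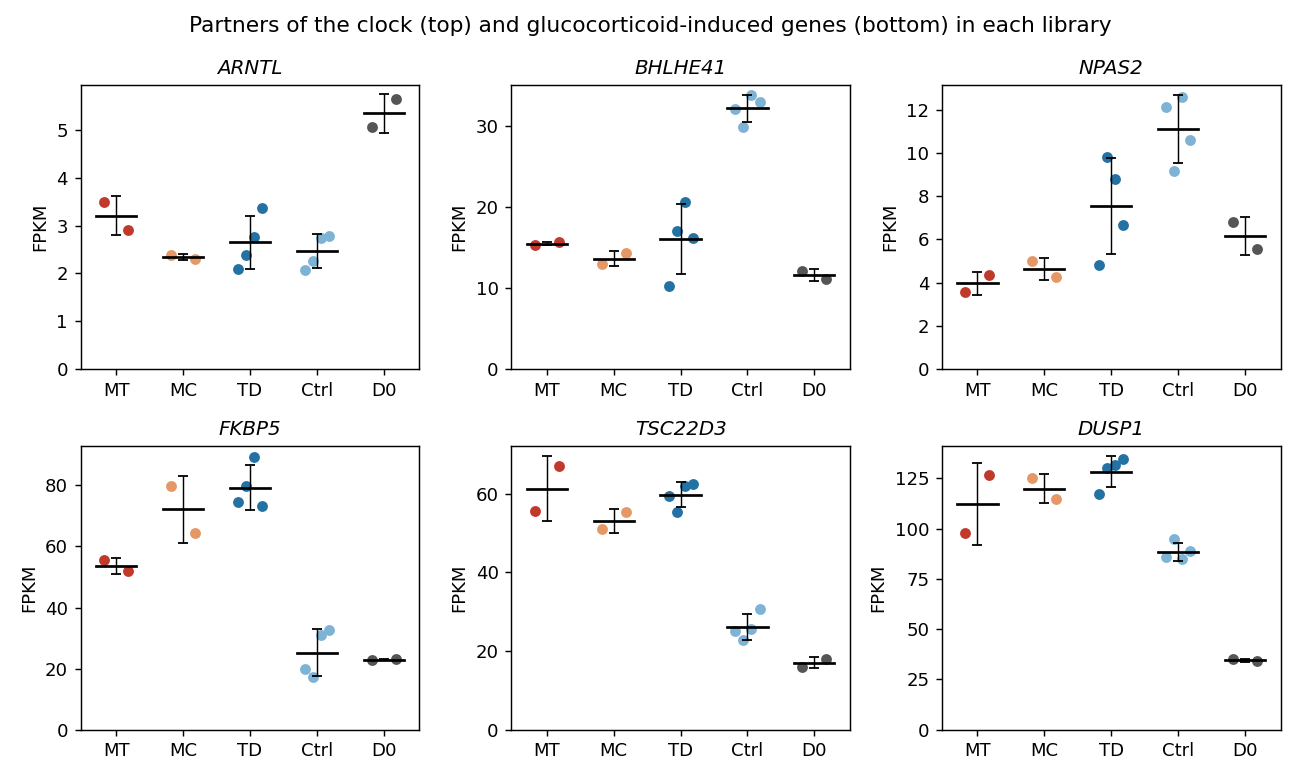
FPKM (y axes, from 0) in each library of MT, MC, TD, Ctrl and D0 slices (x axes) for *ARNTL*, *BHLHE41* and *NPAS2* of the clock (top) and for the glucocorticoid-induced *FKBP5*, *TSC22D3* and *DUSP1* (bottom). Points are libraries, horizontal bars means and vertical bars SD: *ARNTL* is highest in D0 (5.06 and 5.65 FPKM), *BHLHE41* in Ctrl (29.8 to 33.7 FPKM), and *FKBP5* in TD and MC (64.5 to 89.4 FPKM).

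Among the outputs, *KLF15*, a transcription factor of heart metabolism that is also induced by glucocorticoids, had 2.37 and 2.82 FPKM in MT, 2.48 and 1.96 in MC, 3.35, 4.62, 4.45 and 4.06 in TD, 2.08, 1.34, 2.66 and 3.45 in Ctrl, and 0.820 and 0.629 in D0. Every cultured library lay above both D0 libraries. It was higher than in D0 by 1.06 in MT (adjusted p = 0.0106), 0.90 in MC (0.0333), 1.57 in TD (0.00041) and 0.93 in Ctrl (0.021), by limma, and of these calls only that of TD was made in every setting in which *KLF15* was tested and with each of 14 libraries left out. Without D0-2 the adjusted p of *KLF15* was 0.0805 in MT, 0.18 in MC and 0.234 in Ctrl. The MC call of *KLF15* was also lost without D0-1, MC-1 or MC-2, and the Ctrl call without D0-1, Ctrl-3 or Ctrl-4. All 3 were lost with TPM (0.0503 to 0.127), those of MC and Ctrl with voom (0.0995 and 0.0984), and that of MT with the compared conditions alone (0.056) and array weights (0.152).

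*NAMPT*, the rate-limiting enzyme of NAD salvage, had 9.48 and 12.0 FPKM in MT, 9.86 and 10.8 in MC, 9.64, 6.49, 7.17 and 7.97 in TD, 5.84, 7.16, 5.81 and 7.30 in Ctrl, and 5.57 and 5.31 in D0. It was higher than in D0 by 0.86 in MT (adjusted p = 0.00762) and by 0.81 in MC (adjusted p = 0.0149), by limma. Without D0-2 these were 0.059 and 0.0997, and the MC call of *NAMPT* was also lost without D0-1 (0.087) or MC-2 (0.094). With TPM neither call of *NAMPT* was made (0.0654 in MT and 0.0645 in MC), and the MT call was also lost with the compared conditions alone (0.0787) and array weights (0.111).

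Genes with the pattern most like a member were ranked by the root mean square (RMS) difference of log2(FPKM + 1), each gene taken relative to its own D0 mean, over the 14 libraries. Nearest to *DBP* were *BDKRB2* (RMS difference 0.204), *GRIA3* (0.206) and *SLC17A7* (0.259), where the RMS change of *DBP* itself was 0.531. Nearest to *NR1D1* were *FAM168A* (0.213), *IRX3* (0.255) and *FAM189B* (0.267), against an RMS change of 0.767 for *NR1D1*. Nearest to *PER1* were *PPRC1* (0.204), *VASN* (0.275) and *SH3PXD2B* (0.284), against 0.720 for *PER1*. *CLOCK*, which changed little (0.233), was followed by *WDR26* (0.103), *ATF6* (0.110) and *GOLM1* (0.110).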

How the data were processed

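RNA of 14 pig heart slice libraries was sequenced from poly-T selected mRNA (NEBNext kit, strand not stated). The authors processed reads with CASAVA and HISAT2 on Sscrofa11.1 and deposited FPKM per gene. How reads were counted, and on which annotation, is not stated. The study names DESeq2, which needs counts and was not run. Reads per gene were solved from the FPKM for 13125 of 13644 genes (96.2%, within 0.0001 of a whole number), giving 10628827 to 23225189 reads a library, which sets the counting error of low genes. The scaling of the deposited FPKM was closer to median-of-ratios size factors (ratio 0.977 to 1.01) than to library totals (0.905 to 1.08).

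log2(FPKM + 1) of 11527 genes with at least 1 FPKM in 2 libraries was fitted with limma 3.58.1 (R 4.3.3; moderated with trend, 1 mean per condition, all 14 libraries), with Benjamini-Hochberg adjustment over all genes and a threshold of 0.05. The pseudocount makes differences of low genes smaller on this scale. The script was tested on simulated data. Alternatives were a pseudocount of 0.1, no filter, a filter of 5 FPKM, TPM, quantile normalization, the compared conditions alone, array weights, a replicate block and leaving out each library. limma voom on the solved reads (11487 genes) and a covariate (share of reads in genes of at least 5000 bases) were added after seeing the data. Tables were joined in Python 3.11.15 with pandas 2.3.3 and numpy 2.4.6, and drawn with matplotlib 3.10.9. Named genes were every member with an entry, the called genes of the wider lists, overlapping genes, and the genes nearest to *PER1*, *NR1D1*, *DBP* and *CLOCK*. The members and lists were chosen with earlier results of these data known. A result of the wider list is not reported here, and its counts and medians were computed without it.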

Additional observations from a re-analysis of the deposited data

How the results depend on the processing

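The number of clock genes called changed with the processing in most comparisons. In Ctrl against D0 (1 called) it was 0 with a pseudocount of 0.1, with TPM and with the replicate block, and 3 with array weights. In MC against D0 (1) it was 0 with TPM, the replicate block, voom and the long-gene covariate, and 3 with array weights, while with the conditions alone it stayed at 1 with *CRY1* lost and *PER2* gained. In MT against D0 (2) it was 1 with TPM, the compared conditions alone, the replicate block and the covariate, and 0 with array weights. In TD against Ctrl (1) it was 2 with array weights. In MC against Ctrl (2) it was 1 with TPM and voom, 3 with quantile normalization (*TEF* added), 4 with the conditions alone and with array weights, and 0 with the replicate block. In MT against TD (1) it was 0 with no filter, the filter of 5 FPKM, TPM, quantile normalization, the conditions alone, array weights, the replicate block and voom. Leaving out 1 library gave 0 to 1 in Ctrl against D0, 0 to 2 in MC against D0, 0 to 3 in MT against D0, 1 in TD against Ctrl, 0 to 4 in MC against Ctrl, 0 to 1 in MT against TD, 0 to 1 for the difference between cultures, and 0 in TD against D0 and MT against MC. The cause was not tested. No called difference changed sign.

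Over all genes, calls in Ctrl against D0 were 974, and 4773 with array weights, 2177 with the conditions alone, 1644 with the covariate and 544 with the block. In TD against D0 they were 1604, and 3984 with array weights and 1019 with the block. In MC against D0 they were 2032, and 3435 with array weights. In MT against D0 they were 3166, and 1994 with the filter of 5 FPKM, 1308 with the conditions alone and 902 with array weights. In TD against Ctrl they were 401, and 1080 with array weights. In MT against MC they were 368, and 557 with no filter, 64 with the filter of 5 FPKM, 181 with quantile normalization, 0 with the conditions alone, 1 with array weights, 193 with the block and 780 with the covariate. In MC against Ctrl they were 744, and 2053 with the conditions alone, 1579 with array weights, 278 with the block and 316 with voom. In MT against TD they were 1168, and 397 with the filter of 5 FPKM, 129 with the conditions alone, 20 with array weights, 461 with the block and 1819 with the covariate. For the difference between cultures they were 538, and 247 with the filter of 5 FPKM, 346 with TPM, 29 with array weights, 306 with the block and 1039 with the covariate. Leaving out 1 library gave 347 (without D0-1) to 1400 (without MT-1) in Ctrl against D0, 677 (D0-1) to 2224 (MT-2) in TD against D0, 734 (D0-1) to 3049 (MT-1) in MC against D0, 1368 (D0-1) to 4514 (MT-1) in MT against D0, 243 (Ctrl-1) to 634 (MT-2) in TD against Ctrl, 217 (MC-2) to 2127 (MT-1) in MT against MC, 132 (MC-2) to 1780 (MT-2) in MC against Ctrl, 638 (TD-2) to 3077 (MT-1) in MT against TD, and 321 (MC-2) to 2040 (MT-1) for the difference between cultures, so the percentages of all genes called move with single libraries.

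The labels do not say that a replicate number marks a shared animal or batch. Correlations of same-numbered libraries ran from -0.50 to 0.41 between Ctrl and TD (4 pairs), were 0.35 and 0.40 between Ctrl and MC, 0.10 and 0.17 between Ctrl and MT and 0.17 between MC and MT, and were negative between TD and MC (-0.49 and -0.25) and between TD and MT (-0.18 and -0.07), so the numbers were not taken to pair the samples. With the replicate block the adjusted p (limma) was 0.143 for *DBP* in Ctrl against D0, 0.083 for *DBP*, 0.11 for *NR1D1* and 0.0837 for *NPAS2* in MC against Ctrl, 0.133 for *NR1D1* in MT against TD, 0.0759 and 0.0858 for *CRY1* in MT and MC against D0, 0.0705 for *THRA* in MC against D0, 0.0558 for *ARNTL* in MT against D0, 0.0515 and 0.139 for *KLF15* in MC and Ctrl against D0, and 0.0619 for the *BHLHE41* difference between cultures. *DBP* in TD against Ctrl (0.0241) and *NR1D1* in MT against D0 (0.0127) still passed. Groups of 2 libraries limit every comparison with MT, MC or D0.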
